A study of Homo sapiens with 18 samples.

Results

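The genes of the 12q13 region GLI1, OS9, AGAP2, TSPAN31, CDK4, CYP27B1, METTL1, EEF1AKMT3 and AVIL were followed through 18 RNA libraries of a Ewing sarcoma line and a rhabdomyosarcoma line. They are listed neighbours around CDK4 and GLI1 on chromosome 12, taken because this region is amplified in some rhabdomyosarcoma lines, and their symbols were matched to the gene identifiers in the files. The 9 genes are 9 of 57500 genes counted, and 9 of 2913 on chromosome 12. Another 23 counted genes lie between their outermost bounds. The list was made with earlier results of these data known, but the choice used no measured value of its own. All 9 genes passed the filter on low counts in each of the 11 comparisons made.

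The study silenced DNAJC17, which encodes a partner protein of the HSP70 chaperone, by CRISPRi, which uses an sgRNA to bring dCas9 with the KRAB repressor domain to a promoter. The lines were ES8, labelled Ewing sarcoma, and Rh30, labelled rhabdomyosarcoma. Within each line there were 3 groups of 3 libraries, with replicates A, B and C. The sgCTL group was parental cells with a control sgRNA, and the sgDNAJC17 group was parental cells with the sgRNA against DNAJC17. The ΔRRM group had the genotype 3xFLAG-DNAJC17-dRRM, a tagged DNAJC17 without its RNA recognition motif, and also received sgDNAJC17. The study's methods have DNAJC17 alleles expressed from a lentiviral vector under the EF1 promoter with hygromycin resistance, so the ΔRRM group carries a vector that the parental groups lack, and ΔRRM cells with sgCTL were not analysed here. All cells carried dCas9-KRAB and were selected in puromycin for 72 hours after transduction. Cells were plated in triplicate, so the p-values measure the spread between these libraries, which may be technical. A difference between the lines is a difference between 1 line of each sarcoma, and DNA copy number was not measured in these libraries. In bulk RNA, fewer cells expressing a gene and less RNA of it per cell cannot be told apart.

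Gene amplification is the gain of extra copies of a chromosome segment, and genes that lie together on a segment are gained together whether or not each contributes to the tumour. CDK4 encodes the kinase that, bound to a D-type cyclin, phosphorylates the retinoblastoma protein and lets cells pass from G1 into S phase. GLI1 encodes a transcription factor at the end of the Hedgehog pathway, is itself a target of that pathway, and was named for its amplification in a glioma. The other genes have unrelated roles and are best known in this context as neighbours of CDK4.

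In coordinates of GRCh38, the build of the files, the 9 genes span 358570 bases. GLI1 lies apart from the rest on the plus strand at chr12:57460135-57472262. The other 8 lie close together, from OS9 on the plus strand at chr12:57693955-57721557, through AGAP2 (minus strand, chr12:57723761-57742157), TSPAN31 (plus strand, chr12:57738013-57750211), CDK4 (minus strand, chr12:57747727-57756013), CYP27B1 (minus strand, chr12:57762334-57768986), METTL1 (minus strand, chr12:57768471-57772793) and EEF1AKMT3 (plus strand, chr12:57771492-57782541), to AVIL on the minus strand at chr12:57797376-57818704. Several of these genes share exonic sequence. TSPAN31 and CDK4, on opposite strands, share 1369 exonic bases, which are 25.4% of the exonic length of TSPAN31 and 43.2% of that of CDK4. METTL1 and EEF1AKMT3 share 506 bases on opposite strands, and AGAP2 shares 866 bases with its antisense transcript AGAP2-AS1. The strand setting of the counting is not given in the sources used here, so reads in these stretches may be assigned to either gene or to neither.

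The RefSeq table of promoter windows used here (GRCh38.p14, 250 bases before to 50 bases after a gene's start) held 6 entries for 5 of the 9 genes, CDK4, OS9, TSPAN31, AVIL and 2 for AGAP2. GLI1, CYP27B1, METTL1 and EEF1AKMT3 had no entry. The windows were searched on both strands for 6 short motifs, the E-boxes CACGTG and CAGCTG, the GC box GGGCGG, the inverted CCAAT box GATTGG, the GLI site GACCACCCA and the TATA box TATAAA. The CDK4 window held 3 matches to CACGTG, the E-box bound by MYC and related factors, and 0.0940% of 35116 windows of this length held 3 or more while 7.26% held at least 1. The OS9 and TSPAN31 windows each held 2 matches to GATTGG and the AVIL window held 1, against 15.1% of all windows with at least 1 and 2.89% with 2 or more. The 30 bases around these matches are shown because CDK4 and its neighbours differ in them. The RefSeq starts of CDK4, TSPAN31 and OS9 and 1 of the 2 starts of AGAP2 lie inside the bounds that the files give for these genes. The OS9 stretch shown runs across the start of OS9 in the files. Both E-boxes read the same on either strand and were counted once. Capitals mark the motif in either orientation, and each line runs 5′ to 3′ on the gene's strand.
CDK4, 2 E-boxes, minus strand, chr12:57752499-57752528: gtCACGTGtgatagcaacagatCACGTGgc
CDK4, the third E-box, minus strand, chr12:57752394-57752423: atgggtggcggtCACGTGcccagaacgtcc
OS9, 2 CCAAT boxes, plus strand, chr12:57693939-57693968: gatGATTGGctggtctctgaCCAATCacgg
TSPAN31, CCAAT box, plus strand, chr12:57744941-57744970: gtaatgcgggttGATTGGcatgcaggcctt
TSPAN31, CCAAT box, plus strand, chr12:57744987-57745016: ccacgcatttcgCCAATCcagaggcagggg
AVIL, CCAAT box, minus strand, chr12:57818794-57818823: taggttggctctGATTGGccaggactagga
GGGCGG matched 3 times in the CDK4 window, 2 times in an AGAP2 window and 1 time in the OS9 window. Of all windows 44.95% held at least 1 such match, 26.73% held 2 or more and 15.77% held 3 or more. CAGCTG matched 2 times in the CDK4 window, against 17.95% of all windows with at least 1 and 2.05% with 2 or more. The GLI site, present in 0.236% of all windows, and the TATA box, present in 11.5%, had no match in the 6 windows. A match is a run of letters and no measurement of binding.

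Library totals ran from 35342393 to 48245989 counts. Counts on DNAJC17 ran from 559 to 625 with sgCTL and from 59 to 77 with sgDNAJC17 in ES8, and from 461 to 522 and from 81 to 113 in Rh30. The ΔRRM libraries held 13295 to 14449 counts in ES8 and 9849 to 13947 in Rh30, where the added allele is counted with the gene. Of the markers of each line, NKX2-2 and NR0B1 marked ES8 with 97.7 ± 3.58 and 67.6 ± 0.632 CPM (counts scaled to library size, TMM-adjusted, SD, n = 3) in sgCTL, and Rh30 held 0 and 1 counts of them in all 3 sgCTL libraries together. The muscle regulators MYOD1 and MYOG marked Rh30 with 1006 ± 33.9 and 121 ± 5.64 CPM (SD, n = 3), and MYOD1 was at 0.536 ± 0.124 CPM in ES8 with sgCTL and at 0.668 to 1.75 CPM in ES8 ΔRRM. Against its use as a marker of fusion-positive rhabdomyosarcoma, TFAP2B was listed at 0 in all 9 Rh30 libraries and at 6.45 ± 0.743 CPM in ES8 with sgCTL. The summed level of 8 listed genes of Ewing sarcoma was 1275 to 1533 CPM in ES8, and in Rh30 it was 405 to 435 CPM with sgCTL, 430.4 to 524 CPM with sgDNAJC17 and 251 to 275 CPM in ΔRRM. That of 8 of rhabdomyosarcoma was 68.2 to 101 CPM in ES8, and in Rh30 it was 3322 to 3439 CPM with sgCTL, 2757 to 3026 CPM with sgDNAJC17 and 2165 to 2420 CPM in ΔRRM, where 6 of 7 tested genes of this list were lower than with sgCTL. The summed level of 8 epithelial genes was 0.987 to 1.30 CPM in Rh30 with sgCTL, 11.01 to 15.6 CPM with sgDNAJC17 and 11.9 to 14.8 CPM in ΔRRM, most of it from KRT8 and KRT18. It was 33.2 to 43.6 CPM across the ES8 libraries. The part of these marker transcripts in the changes within Rh30 given further on was not tested.

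The question of the first comparison was how high these genes are in Rh30 against ES8. In Rh30, 8 of the 9 genes were higher and 1, GLI1, was lower, and this was so with sgCTL, with sgDNAJC17 and in ΔRRM cells. In sgCTL cells 42.0% of the 17925 genes tested were higher in Rh30 and 45.5% were lower at an adjusted p under 0.05, the threshold used throughout (quasi-likelihood test of edgeR, Benjamini-Hochberg adjustment over all genes tested). At least 8-fold higher were 7 of the 9 genes, against 8.13% of all genes tested, a mark chosen after the values were seen. The median log2 fold change of the 9 genes was 4.25 and that of all genes tested was -0.07. Scaling by library size alone moved the latter to -0.28. All 9 genes kept their sign and passed under that and 14 other alternatives, with GLI1 between -0.81 and -0.36, while GLI1 did not pass when a 2-fold difference was required.

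CDK4, the cell-cycle kinase, was at 6526, 6918 and 7047 CPM in Rh30 with sgCTL and at 310.0, 304 and 294 CPM in ES8 with sgCTL, in the order of the replicates. Every Rh30 library was above every ES8 library. The log2 fold change was 4.47 (SE 0.05, adjusted p = 3.64e-45), which is 22.2-fold. CDK4 alone took 0.654% ± 0.016 (SD, n = 3) of all counts in Rh30 with sgCTL and 0.0342% ± 0.000835 in ES8 with sgCTL. Per length, on the RPKM scale, it was at 2156 ± 85.7 (SD, n = 3) and ranked 5 among all genes in Rh30, and at 95.5 ± 2.59 and ranked 370 in ES8.

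GLI1, the Hedgehog transcription factor, had the opposite sign. It was at 21.1, 20.2 and 20.7 CPM in Rh30 with sgCTL and at 30.7, 30.6 and 30.6 CPM in ES8, so the groups did not overlap and Rh30 was the lower. The log2 fold change was -0.59 (SE 0.06, adjusted p = 1.09e-11), which is 1.51-fold lower in Rh30. In this region, which is amplified in some rhabdomyosarcoma lines, RNA was higher in Rh30 for 8 of the 9 genes and lower for GLI1. Whether the region is amplified in Rh30 was not tested.

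METTL1 encodes the methyltransferase that places 7-methylguanosine on transfer RNA, and EEF1AKMT3 encodes a lysine methyltransferase of the translation factor eEF1A. METTL1 was at 415, 425 and 416 CPM in Rh30 with sgCTL and at 19.8, 21.0 and 20.3 CPM in ES8, a log2 fold change of 4.34 (SE 0.05, adjusted p = 1.84e-44). EEF1AKMT3 was at 150, 152 and 145 CPM in Rh30 and at 7.58, 7.20 and 8.37 CPM in ES8, a log2 fold change of 4.25 (SE 0.06, adjusted p = 8.32e-42). Both genes were separated between the lines with no overlap. Their partners had values of both signs. WDR4, the partner subunit of METTL1, was lower in Rh30 by a log2 fold change of -0.91 (SE 0.06, adjusted p = 2.36e-17), at 20.4 ± 0.516 against 37.5 ± 1.66 CPM (SD, n = 3). EEF1A1, encoding the common form of eEF1A, was higher by 0.61 (SE 0.05, adjusted p = 9.03e-15), and EEF1A2, encoding the form of nerve and muscle, was at 0.211 ± 0.0957 CPM in Rh30 and 167 ± 3.00 CPM in ES8 (SD, n = 3).

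OS9, encoding a lectin that delivers misfolded glycoproteins from the endoplasmic reticulum to degradation, was at 2373, 2336 and 2267 CPM in Rh30 with sgCTL and at 200.5, 200.7 and 195 CPM in ES8, a log2 fold change of 3.52 (SE 0.05, adjusted p = 1.25e-42). AGAP2, encoding a GTPase-activating protein for Arf proteins, was at 239, 219 and 220.2 CPM in Rh30 and at 9.49, 8.77 and 10.0 CPM in ES8, a log2 fold change of 4.56 (SE 0.06, adjusted p = 3.38e-43). AGAP2 moved with GC content and length corrected, to 5.24 with sgCTL, from 4.46 to 5.45 with sgDNAJC17 and from 3.67 to 5.07 in ΔRRM cells. TSPAN31, encoding a tetraspanin of the cell membrane, was at 305, 327 and 343 CPM in Rh30 and at 26.8, 23.8 and 25.6 CPM in ES8, a log2 fold change of 3.65 (SE 0.06, adjusted p = 4.79e-41). These 3 genes lie to the lower-coordinate side of CDK4 and were separated between the lines in every library.

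AVIL, encoding advillin, an actin-binding protein, had the highest fold change of the 9 genes in sgCTL cells. It was at 84.5, 81.9 and 81.0 CPM in Rh30 and at 1.86, 1.83 and 2.28 CPM in ES8, a log2 fold change of 5.34 (SE 0.08, adjusted p = 1.33e-41), which is 40.6-fold. CYP27B1, encoding the enzyme that makes the active form of vitamin D, had the smallest difference of the 8 that were higher. It was at 23.8, 19.9 and 21.0 CPM in Rh30 and at 5.94, 5.07 and 5.99 CPM in ES8, a log2 fold change of 1.90 (SE 0.09, adjusted p = 2.34e-23), which is 3.73-fold. CYP27B1 lies between CDK4 and METTL1, which were 22.2-fold and 20.2-fold higher.

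On the RPKM scale, levels can be set between genes, within the limit of the shared exonic bases. These were 43.2% of the exonic length of CDK4, 30.1% of TSPAN31, 23.4% of METTL1 and 0.190% of GLI1, so the limit is unequal. In Rh30 with sgCTL the means ran from CDK4 at 2156, through OS9 at 449.9, METTL1 at 159.7, TSPAN31 at 60.4, EEF1AKMT3 at 47.1, AGAP2 at 33.6, AVIL at 14 and CYP27B1 at 6.26, to GLI1 at 4.92. In ES8 with sgCTL the first 3 were the same genes at 95.5, 38.4 and 7.76 RPKM, GLI1 was next at 7.28, and AVIL was last at 0.338. The 9 genes together took 0.995% ± 0.00685 (SD, n = 3) of the counts in Rh30 with sgCTL and 0.0681% ± 0.000967 in ES8 with sgCTL.

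**Figure D1:**
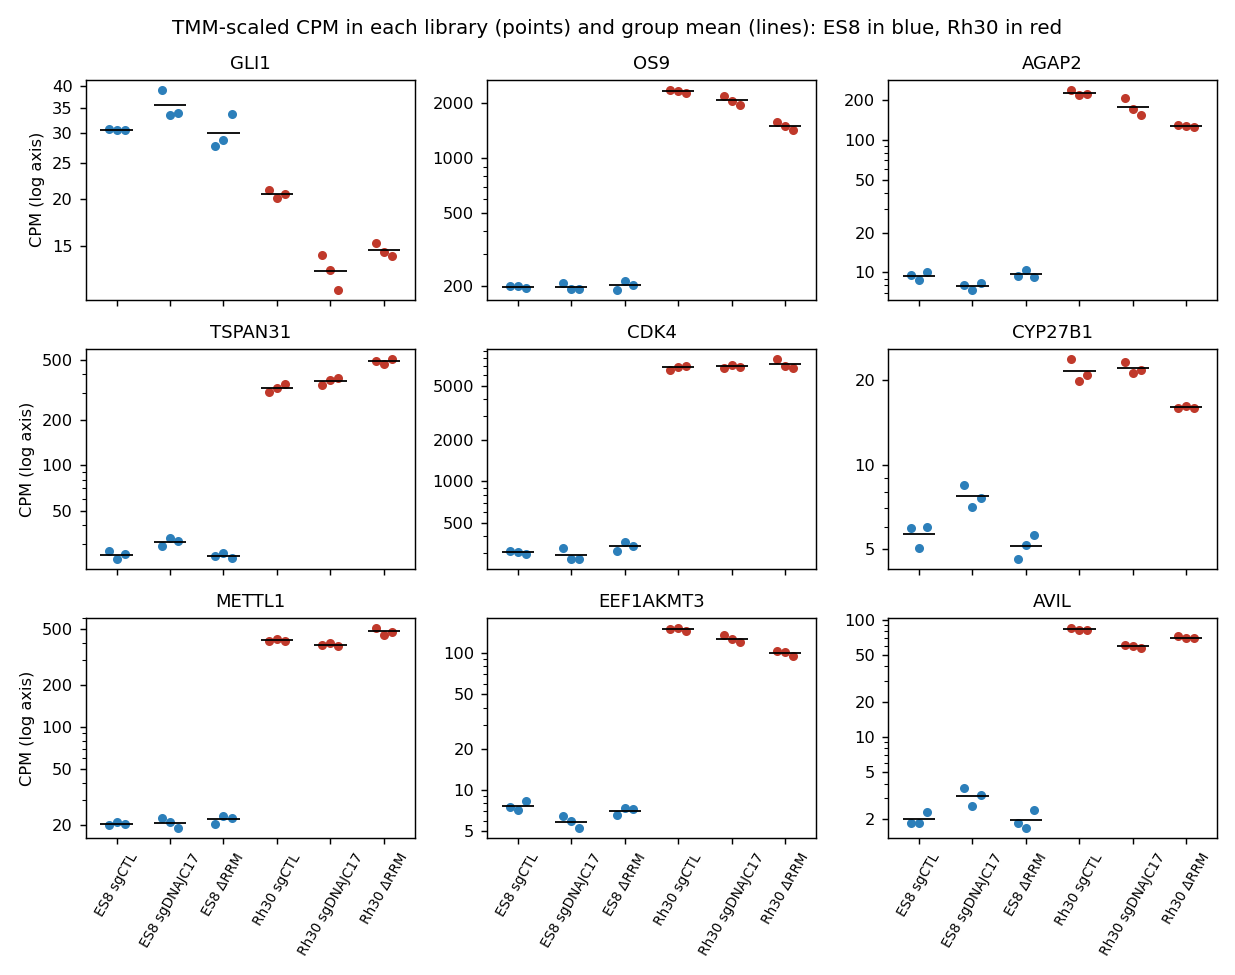
Level of each of the 9 genes in CPM (log axis) in every library (points; ES8 blue, Rh30 red) with the mean of each group of 3 (lines). For 8 genes all 9 Rh30 libraries sit above all 9 ES8 libraries, with CDK4 between 6526 and 7880 CPM in Rh30 and between 271 and 360.0 CPM in ES8, while for GLI1 all Rh30 libraries sit below all ES8 libraries.

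The same comparison was made in the other groups. With sgDNAJC17, where 38.9% of 17665 genes were higher in Rh30, 44.3% lower and 8.00% at least 8-fold higher, 8 of the 9 genes were higher, 1 was lower and 7 were at least 8-fold higher. In ΔRRM cells, where 40.3% of 17700 genes were higher, 46.0% lower and 8.24% at least 8-fold higher, 8 were higher, 1 was lower and 6 were at least 8-fold higher. CDK4 had log2 fold changes of 4.56 (SE 0.11, adjusted p = 2.16e-16) and 4.38 (SE 0.10, adjusted p = 3.32e-16) in these 2 comparisons. GLI1 had log2 fold changes of -1.48 (SE 0.12, adjusted p = 3.11e-09) and -1.08 (SE 0.10, adjusted p = 2.97e-08), which became -0.97 and -0.42 with GC content and length corrected. OS9 was the gene that was at least 8-fold higher with sgCTL and sgDNAJC17 and not in ΔRRM cells, with 11.5-fold, 10.3-fold and 7.19-fold. OS9 was above that mark in ΔRRM cells too with GC content and length corrected, at a log2 fold change of 3.21 in place of 2.85. These comparisons use different libraries, but all come from the same 2 lines.

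The next question was how the difference between the lines runs along the chromosome. It was not even from GLI1 to AVIL. Of 18 other tested genes between the outermost bounds, 11 were higher and 5 lower in Rh30 with sgCTL. Those between GLI1 and OS9 had values of both signs. Higher in Rh30 were ARHGAP9 (log2 fold change 2.70), MARS1, which encodes the transfer RNA synthetase for methionine (2.02), ARHGEF25 (1.17), DDIT3, which encodes the stress-response factor CHOP (1.06), MBD6 (0.94) and ENSG00000224713 (0.39). Lower in Rh30 were DCTN2 (-0.22), DTX3 (-0.55), SLC26A10P (-1.64) and B4GALNT1, which encodes a ganglioside synthase (-2.53). KIF5A, which encodes a neuronal kinesin, had 4 counts in the 3 Rh30 libraries together and 577 in the 3 ES8 libraries, and PIP4K2C did not pass the test (-0.06, adjusted p = 0.292). From OS9 on, the non-listed neighbours were higher by amounts like those of the listed genes. MARCHF9, whose 5′ end lies 0.915 kb from that of CDK4, was higher by 4.48 (SE 0.05, adjusted p = 6.94e-45), the antisense transcript AGAP2-AS1 by 3.92 (SE 0.05, adjusted p = 1.00e-42), the mitochondrial translation factor gene TSFM by 3.72 (SE 0.05, adjusted p = 2.51e-42) and ENSG00000257921 by 3.61 (SE 0.21, adjusted p = 7.89e-20). AGAP2-AS1, TSFM and ENSG00000257921 share exonic bases with AGAP2, AVIL and EEF1AKMT3, and their values are uncertain to that extent. The other tested genes there were ENSG00000270039 (2.54, adjusted p = 2.84e-09) and ENSG00000269903 (0.66, adjusted p = 0.206).

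Beyond AVIL, the nearest 3 tested genes were CTDSP2 (log2 fold change 2.20, adjusted p = 1.53e-35), ENSG00000257953 (-4.07, adjusted p = 8.35e-16) and ENSG00000245651 (1.51, adjusted p = 0.000258). Named after their values were seen, GIHCG (3.82, adjusted p = 1.00e-37) and ATP23 (4.06, adjusted p = 1.64e-40) followed, and then LINC02403 and ENSG00000279134, which had 0 counts in the 3 ES8 libraries with sgCTL. Against a floor of 3 counts over the group, LINC02403 was at least 93.1-fold higher and ENSG00000279134 at least 38.3-fold higher in Rh30. The next tested gene, LRIG3, starts 1165 kb from CDK4 and was lower in Rh30 (-1.09, adjusted p = 6.79e-17). From OS9 to ENSG00000279134, a stretch of 404 kb whose limits were set after the values were seen, 19 of 21 tested genes were higher in Rh30 and 15 were at least 8-fold higher. On chromosome 12 as a whole 77 of 965 tested genes, 7.98%, were at least 8-fold higher. On the other side, before GLI1, INHBE (5.92, adjusted p = 1.01e-44), INHBC (1.16, adjusted p = 0.00129) and R3HDM2-DT (2.58, adjusted p = 2.23e-05) were the nearest tested genes, all higher in Rh30 although GLI1 beside them was lower. Farther out on that side, also named after their values were seen, STAC3 (9.01), SHMT2 (3.28) and LRP1-AS (4.66) were at least 8-fold higher too. Among them NXPH4 (2.21) and LRP1 (2.09) were higher, and R3HDM2 (-0.96) and NDUFA4L2 (-0.65) were lower. Large differences were thus not confined to the stretch from OS9 on.

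Flanks of 5 Mb were counted in the same comparison. Of 130 tested genes on the GLI1 side, 25 were higher and 90 lower in Rh30, with a median log2 fold change of -0.76. Of 16 tested genes on the AVIL side, 8 were higher and 8 lower, with a median of 0.14. Of 792 tested genes on the rest of chromosome 12, 283 were higher and 415 lower, with a median of -0.33. At least 8-fold higher were 6 genes on the GLI1 side, 5 on the AVIL side and 55 on the rest of the chromosome. With flanks of 2 Mb, 31.5% of the genes on the GLI1 side were higher in place of 19.2%. On the AVIL side 6 of 9 tested genes were then higher and 3 lower, with a median log2 fold change of 2.20.

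**Figure D2:**
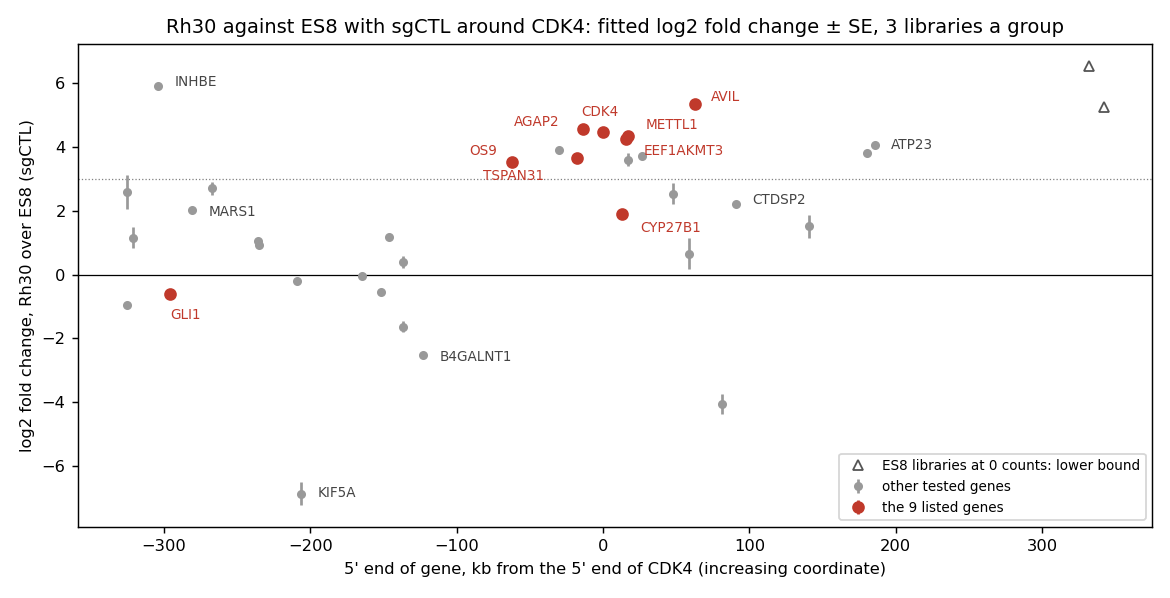
Fitted log2 fold change of Rh30 over ES8 with sgCTL (vertical axis, bars are SE, 3 libraries a group) for the tested genes by the distance of their 5′ end from that of CDK4 in kb (horizontal axis), with the 9 listed genes in red, other genes in grey, lower bounds as triangles and the 8-fold mark as a dotted line. From OS9 to AVIL 7 of the 8 listed genes lie above the 8-fold mark and CYP27B1 at 1.90 lies below it, while GLI1 at -0.59 lies among neighbours of both signs.

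The genes whose levels over the 18 libraries were most like those of CDK4 were found by the Euclidean distance between mean-centred log2 CPM among 19360 genes. The nearest was METTL1, its neighbour (distance 0.53), followed by AOPEP on chromosome 9 (0.59), ENO3 on chromosome 17 (0.59), PERP on chromosome 6 (0.64) and ENSG00000271857 on chromosome 6 (0.69). For GLI1 they were E2F2 (0.44), CABLES2 (0.53), FRMD4A (0.57), REEP4 (0.60) and INTS11 (0.60), none of which is on chromosome 12. The 18 points fall into 2 lines, so these distances are mostly distances in the difference between the lines.

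The pathways of CDK4 and GLI1 were looked at next, from gene lists written with earlier results known. Of 16 genes that act with CDK4 (cyclins D, CDK inhibitors, the retinoblastoma family and E2F factors), 12 were higher and 4 lower in Rh30 with sgCTL. Of all genes tested 42.0% were higher and 45.5% lower. The median log2 fold change of the 16 genes was 1.00, and that of all genes tested was -0.07. CDKN2A, which encodes the CDK4 inhibitor p16 and the p53 activator ARF, was at 371 ± 26.9 CPM in Rh30 and 0.114 ± 0.0268 CPM in ES8 (SD, n = 3), the latter resting on 17 counts. CDKN2B, encoding the inhibitor p15 beside it, had 1101 counts in the Rh30 libraries together and 6 in the ES8 libraries. CDK6, the sister kinase of CDK4, was higher in Rh30 by 3.95 on the log2 scale (SE 0.06, adjusted p = 4.46e-42), CDKN1A, encoding the inhibitor p21, by 3.40 (SE 0.06, adjusted p = 2.83e-39), RB1 by 1.40 (SE 0.06, adjusted p = 1.55e-23) and CCND2 by 0.75 (SE 0.06, adjusted p = 9.73e-16). CCND1, encoding cyclin D1, was lower in Rh30 by a log2 fold change of -1.74 (SE 0.05, adjusted p = 9.08e-32), at 267 ± 14.2 CPM against 876 ± 22.8 CPM (SD, n = 3).

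Of 15 Hedgehog pathway genes 12 were tested, and with sgCTL 4 were higher and 8 lower in Rh30, with a median log2 fold change of -1.04. Of all genes tested 42.0% were higher and 45.5% lower. The ligand gene SHH had 0 counts in the Rh30 libraries and was at 7.30 ± 0.103 CPM in ES8 (SD, n = 3), at least 309-fold lower in Rh30 against the floor of 3 counts. The kinesin gene KIF7, whose product regulates GLI proteins, was lower by a log2 fold change of -6.78 (SE 0.15, adjusted p = 5.98e-35) and GLI3 by -4.13 (SE 0.07, adjusted p = 8.25e-39). BOC, encoding a co-receptor, was higher by 5.59 (SE 0.12, adjusted p = 6.54e-36). The receptor gene PTCH1, which like GLI1 is a target of the pathway, was at 31.3 ± 3.52 CPM in Rh30 and 33.8 ± 0.151 CPM in ES8 (SD, n = 3) and passed narrowly (log2 fold change -0.14, SE 0.06, adjusted p = 0.0410), with 0.07 (adjusted p = 0.190) with GC content and length corrected. HHIP, another target, was at 0.246 ± 0.0643 CPM and 0.164 ± 0.0788 CPM (SD, n = 3) and was not tested.

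A second stretch of 12q, around MDM2, is gained together with CDK4 in some sarcomas. Of its 7 listed genes 6 were tested in Rh30 against ES8 with sgCTL. Of all genes tested there, 42.0% were higher in Rh30 and 45.5% lower. Of the 6 genes, 4 were lower, 0 were higher with edgeR or with DESeq2, and the median was -0.96. The other 2, YEATS4 (0.06, adjusted p = 0.458) and RAP1B (-0.06, adjusted p = 0.267), did not pass. With GC content and length corrected 1 was higher and 5 lower, where 7781 of 17925 genes tested were higher and 7970 lower. HMGA2 was lower by a log2 fold change of -4.53 (SE 0.05, adjusted p = 8.95e-45), MDM2 by -1.51 (SE 0.05, adjusted p = 9.50e-28), FRS2 by -1.48 (SE 0.06, adjusted p = 3.50e-24) and NUP107 by -0.44 (SE 0.05, adjusted p = 4.80e-11). Around CYP27B1, 5 vitamin D genes were tested, of which 2 were higher and 2 lower, against the same 42.0% and 45.5% of all genes tested. The vitamin D receptor gene VDR and CYP24A1, whose product degrades active vitamin D, had 3 counts each in the Rh30 libraries together and 860 and 2743 in the ES8 libraries. CYP27A1, encoding a sterol hydroxylase, was higher by 4.19 (SE 0.20, adjusted p = 1.43e-22) and RXRA, encoding the partner of the receptor, by 0.28 (SE 0.05, adjusted p = 3.33e-06).

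The remaining comparisons asked whether these genes changed when DNAJC17 was silenced. In each of the 6 comparisons within a line the 9 genes moved by less than 2-fold, and CDK4 passed the test in none of them, although it passed under some alternatives in ES8 given further on. Counts per gene cannot show exon skipping, which the study reported for CDK4 after DNAJC17 loss in both lines. Splicing was not examined here. The fold between the lines was larger for 8 of the genes than any change within a line. GLI1 was 1.58-fold lower with sgDNAJC17 than with sgCTL in Rh30, against 1.51-fold lower in Rh30 than in ES8 with sgCTL, 2.79-fold with sgDNAJC17 and 2.12-fold in ΔRRM cells.

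In ES8, 4 of the 9 genes passed with sgDNAJC17 against sgCTL, 3 up and 1 down, where 13.6% of 17143 genes tested rose and 13.8% fell. AVIL rose from 1.86, 1.83 and 2.28 CPM to 3.67, 2.55 and 3.18 CPM (log2 fold change 0.63, SE 0.17, adjusted p = 0.0210). CYP27B1 rose from 5.94, 5.07 and 5.99 CPM to 8.46, 7.06 and 7.62 CPM (0.42, SE 0.11, adjusted p = 0.0197). TSPAN31 rose from 26.8, 23.8 and 25.6 CPM to 28.9, 32.6 and 31.1 CPM (0.26, SE 0.08, adjusted p = 0.0347), and EEF1AKMT3 fell from 7.58, 7.20 and 8.37 CPM to 6.50, 5.91 and 5.28 CPM (-0.41, SE 0.11, adjusted p = 0.0215). The groups did not overlap for these 4 genes, nor for GLI1 and AGAP2, which did not pass. How many of all genes tested were without overlap was not counted, here or in the comparisons below. CDK4 was at 328, 272 and 271 CPM after silencing (-0.08, SE 0.08, adjusted p = 0.462), and GLI1 was at 39.1, 33.6 and 33.99 CPM (0.19, SE 0.08, adjusted p = 0.0962). The count moved with single libraries. Without the sgDNAJC17 library A 6 of the 9 genes passed, where 3950 of 17652 genes tested rose and 4044 fell. Without the sgCTL library A 0 of the 9 passed, where 1388 of 17499 genes tested rose and 1210 fell. Without the sgCTL library B, the sgCTL library C or the sgDNAJC17 library C 1 passed, and without the sgDNAJC17 library B 2 passed. In those fits 1331 to 1947 of all genes tested rose and 1171 to 1835 fell. CDK4 was lower and passed without the sgDNAJC17 library A (-0.18, adjusted p = 5.06e-06) and with GC content and length corrected (-0.16, adjusted p = 0.0213). The same correction brought GLI1 past the test (0.17, adjusted p = 0.00908), and with library size alone TSPAN31 did not pass (0.21, adjusted p = 0.0847).

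In ES8 ΔRRM cells against sgCTL, 0 of the 9 genes passed with edgeR or with DESeq2, and 1, CDK4, had an unadjusted p under 0.05. There 0.0930% of 17199 genes tested rose and 0.0814% fell. CDK4 was at 312, 360.0 and 339.6 CPM (log2 fold change 0.15, SE 0.06, adjusted p = 0.353), above all 3 sgCTL libraries, and the other 8 genes overlapped between the groups. Against sgDNAJC17, where 7.35% of 17099 genes were higher and 7.36% lower in ΔRRM cells, 2 of the 9 genes were lower, CYP27B1 at 4.61, 5.16 and 5.64 CPM (-0.56, SE 0.13, adjusted p = 0.0155) and AVIL at 1.85, 1.66 and 2.40 CPM (-0.65, SE 0.19, adjusted p = 0.0426). With all 18 libraries in 1 fit 7 of the 9 genes passed, and with GC content and length corrected 5 did. Over all genes tested, the fit of 18 libraries gave 2127 of 19360 up and 2409 down. The correction gave 2650 of 17099 up and 2789 down. CDK4 was at 0.24 (adjusted p = 0.126) and passed with all 18 libraries (0.22, adjusted p = 0.0388), with GC content and length corrected (0.25, adjusted p = 0.00975) and without the sgDNAJC17 library A (0.34, adjusted p = 0.0143). With library size alone AVIL did not pass (-0.62, adjusted p = 0.0552). Without the ΔRRM library A 0 passed, and without the ΔRRM library B or the sgDNAJC17 library C 1 passed. In those fits 580 to 966 of all genes tested were higher and 712 to 926 lower, against 1257 and 1259 in the main fit.

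In Rh30, 4 of the 9 genes passed with sgDNAJC17 against sgCTL and all 4 fell, where 16.1% of 15391 genes tested rose and 16.2% fell. GLI1 fell from 21.1, 20.2 and 20.7 CPM to 14.3, 12.97 and 11.5 CPM (log2 fold change -0.66, SE 0.08, adjusted p = 0.000128). AVIL fell from 84.5, 81.9 and 81.0 CPM to 61.2, 59.6 and 57.0 CPM (-0.46, SE 0.06, adjusted p = 0.000141). AGAP2 fell from 239, 219 and 220.2 CPM to 205, 172 and 153 CPM (-0.34, SE 0.08, adjusted p = 0.00776), and EEF1AKMT3 fell from 150, 152 and 145 CPM to 135, 126 and 121 CPM (-0.21, SE 0.06, adjusted p = 0.0144). The libraries of the groups did not overlap for these 4 genes, nor for OS9 and METTL1, which did not pass in this test. The share of all genes tested without overlap was not counted. With edgeR 0 rose, 1, TSPAN31, was at 0.17 with an unadjusted p of 0.0223, and DESeq2 gave 0 up and 5 down. CDK4 was at 6796, 7108 and 6924 CPM (0.04, SE 0.06, adjusted p = 0.666). With the replicate letter as a block, which pairs the libraries in this comparison, 7 of the 9 genes passed, and TSPAN31 was then higher (0.17, adjusted p = 0.000113) and OS9 (-0.15, adjusted p = 4.74e-05) and METTL1 (-0.10, adjusted p = 0.0112) lower in addition. That block gave 3621 of 15391 genes tested up and 3614 down, against 2473 and 2501 without it. With GC content and length corrected AGAP2 moved to -0.08 and no longer passed (adjusted p = 0.264).

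In Rh30 ΔRRM cells against sgCTL, 8 of the 9 genes passed, 2 up and 6 down, where 33.8% of 15442 genes tested rose and 35.0% fell. AGAP2 fell to 129, 128 and 125 CPM (log2 fold change -0.79, SE 0.06, adjusted p = 1.44e-17), OS9 from 2373, 2336 and 2267 CPM to 1575, 1511 and 1426 CPM (-0.59, SE 0.07, adjusted p = 3.03e-11) and EEF1AKMT3 to 104, 103 and 94.7 CPM (-0.54, SE 0.06, adjusted p = 1.56e-11). GLI1 fell to 15.3, 14.5 and 14.1 CPM (-0.46, SE 0.08, adjusted p = 1.12e-06), CYP27B1 to 15.9, 16.2 and 15.9 CPM (-0.39, SE 0.08, adjusted p = 2.99e-05) and AVIL to 72.1, 69.3 and 69.2 CPM (-0.19, SE 0.06, adjusted p = 0.00465). The 2 genes that rose were TSPAN31, from 305, 327 and 343 CPM to 492, 468 and 507 CPM (0.62, SE 0.06, adjusted p = 4.84e-13), and METTL1, from 415, 425 and 416 CPM to 511, 459 and 481 CPM (0.24, SE 0.06, adjusted p = 0.000572). The groups did not overlap for any of these 8 genes, and the share of all genes tested without overlap was not counted. CDK4 was at 7880, 6942 and 6792 CPM (0.11, SE 0.08, adjusted p = 0.187) and overlapped sgCTL. TSPAN31 and CDK4, which share 1369 exonic bases, thus differed in this comparison.

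The log2 fold change in Rh30 ΔRRM cells moved with GC content over all genes. When genes were put in 10 bins by GC content, the median was 0.42 in the lowest bin (GC content 36.9%) and -0.47 in the highest (63.9%). AGAP2, with the highest GC content of the 9 genes at 65.2%, had the lowest change, and TSPAN31, with the lowest at 47.7%, the highest. Between them the order was not that of GC content. EEF1AKMT3 at 48.5% and AVIL at 49.1% fell, and METTL1 at 53.1% rose. With GC content and length corrected AGAP2 was at -0.19 (adjusted p = 0.00107), GLI1 at -0.18 (adjusted p = 0.0267), OS9 at -0.38 (adjusted p = 6.25e-07), METTL1 at 0.13 (adjusted p = 0.0263) and AVIL at -0.07 (adjusted p = 0.240), while EEF1AKMT3 was at -0.70 (adjusted p = 4.67e-13) and TSPAN31 at 0.68 (adjusted p = 6.41e-12). Scaling by library size alone moved the median of all genes from -0.01 to -0.25, with 3585 genes up and 7226 down in place of near-equal counts, and METTL1 was then at 0.01 (adjusted p = 0.914) and CDK4 at -0.12 (adjusted p = 0.0598). The part of GC content and of the scaling in these changes was not tested.

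**Figure D3:**
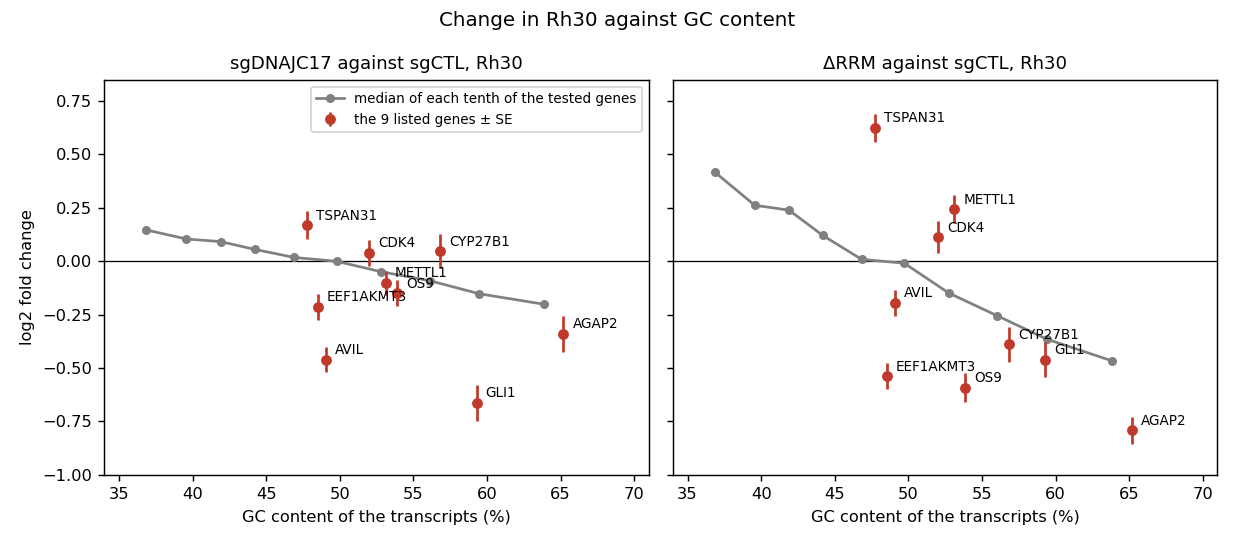
Log2 fold change in Rh30 (vertical axis) against GC content of the transcripts in percent (horizontal axis) for sgDNAJC17 (left) and ΔRRM (right) against sgCTL, with the medians of 10 GC bins of the tested genes in grey and the 9 listed genes in red with SE. In ΔRRM the medians fall from 0.42 to -0.47, with AGAP2 at -0.79 and 65.2% GC on the right and TSPAN31 at 0.62 and 47.7% GC on the left. EEF1AKMT3, near TSPAN31 in GC content at 48.5%, lies at -0.54.

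Against sgDNAJC17, where 29.4% of 15309 genes were higher and 30.5% lower in Rh30 ΔRRM cells, 3 of the 9 genes were higher and 4 lower. TSPAN31 (log2 fold change 0.44, SE 0.08, adjusted p = 1.11e-06), METTL1 (0.33, SE 0.08, adjusted p = 0.000166) and AVIL (0.25, SE 0.08, adjusted p = 0.00420) were higher. AGAP2 (-0.46, SE 0.08, adjusted p = 5.47e-07), OS9 (-0.46, SE 0.08, adjusted p = 1.68e-06), CYP27B1 (-0.45, SE 0.09, adjusted p = 2.17e-05) and EEF1AKMT3 (-0.34, SE 0.08, adjusted p = 0.000115) were lower. GLI1, which was lower than sgCTL in both groups, did not pass between them (0.19, SE 0.10, adjusted p = 0.101), and passed with GC content and length corrected (0.33, adjusted p = 0.000898). That correction moved AGAP2 to -0.14 (adjusted p = 0.0426, and 0.0534 with the block added), and with library size alone AVIL did not pass (0.09, adjusted p = 0.344). The comparisons of sgDNAJC17 and ΔRRM with sgCTL share the same sgCTL libraries.

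**Figure D4:**
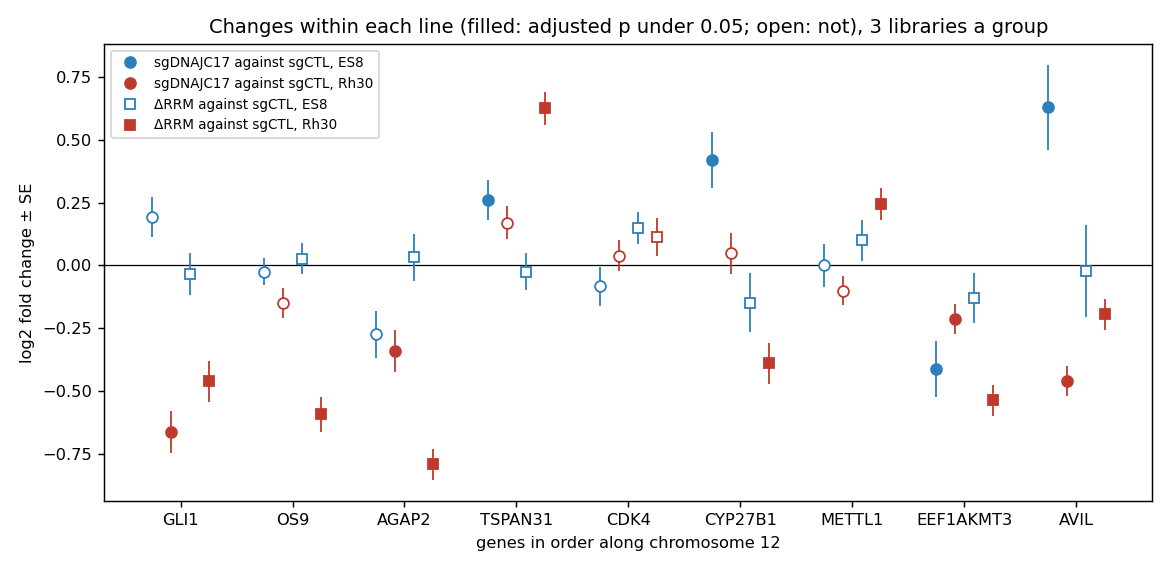
Log2 fold change with SE (vertical axis) of the 9 genes in order along chromosome 12 (horizontal axis) within ES8 (blue) and Rh30 (red), for sgDNAJC17 (circles) and ΔRRM (squares) against sgCTL, 3 libraries a group, filled where the adjusted p is under 0.05. No gene reaches 1 or -1, CDK4 has open symbols in all 4 comparisons, and AVIL lies at 0.63 in ES8 and -0.46 in Rh30 with sgDNAJC17.

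Whether the lines differed in these changes was tested as an interaction over 12 libraries. For sgDNAJC17 against sgCTL, 5.23% of 18899 genes had a higher change in Rh30 than in ES8 and 4.55% a lower one, and 2 of the 9 genes had a lower one. AVIL differed by -1.06 (SE 0.16, adjusted p = 0.000459), having risen in ES8 and fallen in Rh30, and GLI1 by -0.83 (SE 0.13, adjusted p = 0.000519). For ΔRRM against sgCTL, 19.9% of 18854 genes had a higher change in Rh30 and 21.5% a lower one. Of the 9 genes, TSPAN31 had a higher one (0.65, SE 0.09, adjusted p = 3.96e-06), and AGAP2 (-0.82, SE 0.10, adjusted p = 4.91e-07), OS9 (-0.62, SE 0.08, adjusted p = 2.41e-06), GLI1 (-0.43, SE 0.11, adjusted p = 0.00414) and EEF1AKMT3 (-0.41, SE 0.10, adjusted p = 0.00256) had a lower one. With GC content and length corrected GLI1 (-0.10, adjusted p = 0.466) and AGAP2 (-0.21, adjusted p = 0.0758) no longer passed in ΔRRM, and CDK4 passed for sgDNAJC17 (0.22, adjusted p = 0.0471). With library size alone CDK4 (-0.25, adjusted p = 0.0142) and CYP27B1 (-0.46, adjusted p = 0.0161) passed for ΔRRM.

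Across the 6 groups, CDK4 ran from ΔRRM, sgDNAJC17 and sgCTL in Rh30, whose libraries overlapped, to ΔRRM, sgCTL and sgDNAJC17 in ES8, of which sgDNAJC17 overlapped both of the others. GLI1 ran from sgDNAJC17, sgCTL and ΔRRM in ES8 to sgCTL, ΔRRM and sgDNAJC17 in Rh30, and overlaps between neighbours were seen between sgCTL and ΔRRM in ES8 and between ΔRRM and sgDNAJC17 in Rh30. OS9 and AGAP2 both ran from sgCTL through sgDNAJC17 to ΔRRM in Rh30 with no overlap between neighbours.

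The pathway lists were counted in the same comparisons. In Rh30 with sgDNAJC17, 3 of 16 tested genes of the CDK4 and RB1 list rose and 8 fell, with a median log2 fold change of -0.17, where 16.1% of all genes tested rose and 16.2% fell. E2F2 (-0.65, SE 0.09, adjusted p = 0.000164), E2F1 (-0.59, SE 0.07, adjusted p = 5.75e-05), CDKN1A (-0.37, SE 0.06, adjusted p = 0.000524) and CCND2 (-0.34, SE 0.07, adjusted p = 0.00236) fell, and CCND1 (0.38, SE 0.07, adjusted p = 0.00157), CDKN2A (0.26, SE 0.07, adjusted p = 0.0109) and CDK6 (0.20, SE 0.07, adjusted p = 0.0291) rose. In Rh30 ΔRRM 1 rose and 9 fell, where 33.8% of all genes tested rose and 35.0% fell. There CDKN2A rose (0.72, SE 0.07, adjusted p = 3.40e-14), and CDKN2B (-0.96, SE 0.12, adjusted p = 1.11e-10), E2F2 (-0.67, SE 0.07, adjusted p = 1.97e-13), CCND1 (-0.61, SE 0.06, adjusted p = 2.63e-13), CDK6 (-0.52, SE 0.06, adjusted p = 8.36e-11), RB1 (-0.37, SE 0.07, adjusted p = 1.22e-05) and CCND2 (-0.23, SE 0.07, adjusted p = 0.00247) fell. In ES8 with sgDNAJC17, 2 of 14 tested genes rose and 4 fell (13.6% and 13.8% of all genes tested), among them CCND2 (0.50, SE 0.07, adjusted p = 0.000918), CDKN1B (0.47, SE 0.09, adjusted p = 0.00526), RBL1 (-0.36, SE 0.10, adjusted p = 0.0269), RBL2 (-0.64, SE 0.09, adjusted p = 0.00104) and CDK6 (-0.32, SE 0.11, adjusted p = 0.0481).

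Of the Hedgehog list, 6 of 11 tested genes fell in Rh30 with sgDNAJC17, against 16.2% of all genes tested, with a median log2 fold change of -0.23. SUFU (-0.41, SE 0.08, adjusted p = 0.00167), GAS1 (-0.37, SE 0.08, adjusted p = 0.00343) and GPR161 (-0.26, SE 0.08, adjusted p = 0.0270) were among them. With GC content and length corrected 2 of 11 fell, where 2579 of 15391 genes tested rose and 2243 fell. In Rh30 ΔRRM 10 of 11 fell, against 35.0% of all genes tested, with a median of -0.73, including GLI2 (-1.77, SE 0.11, adjusted p = 1.71e-21), PTCH1 (-1.07, SE 0.08, adjusted p = 1.39e-17), at 14.5 ± 1.40 CPM against 31.3 ± 3.52 CPM (SD, n = 3), and CDON (-0.92, SE 0.07, adjusted p = 7.53e-18). The counts were 1 up and 7 down of 11 with GC content and length corrected, where 4716 of 15442 genes tested rose and 4960 fell. In ES8 with sgDNAJC17, 2 of 12 tested genes rose, against 13.6% of all genes tested, GLI2 (0.27, SE 0.08, adjusted p = 0.0262) and PTCH1 (0.27, SE 0.06, adjusted p = 0.0121). With GC content and length corrected 5 of 12 rose and 1 fell, where 3837 of 17143 genes tested rose and 3428 fell.

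Of the second stretch of 12q, 5 of 6 tested genes rose in Rh30 ΔRRM, against 33.8% of all genes tested, among them YEATS4 (0.98, SE 0.07, adjusted p = 4.01e-18), RAP1B (0.94, SE 0.06, adjusted p = 6.56e-20), NUP107 (0.55, SE 0.06, adjusted p = 1.62e-11) and HMGA2 (0.21, SE 0.08, adjusted p = 0.0140), the last with the opposite sign of -0.02 under scaling by library size alone. With all 18 libraries in 1 fit 3 of 6 rose, where 4681 of 19360 genes tested rose and 5458 fell. Of the vitamin D list 3 genes were tested there, and RXRA (-1.18, SE 0.06, adjusted p = 4.93e-24) and CYP27A1 (-0.54, SE 0.13, adjusted p = 0.000126) fell while CYP2R1 (0.45, SE 0.11, adjusted p = 0.000266) rose. Among the partners, WDR4 fell (-0.30, SE 0.08, adjusted p = 0.000877) while METTL1 rose, and EEF1A1 (1.11, SE 0.08, adjusted p = 5.26e-18) and EEF1A2 (1.56, SE 0.43, adjusted p = 0.00119) rose while EEF1AKMT3 fell, with EEF1A2 at 65 counts in the 3 ΔRRM libraries and 27 in the 3 sgCTL libraries.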

How the data were processed

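RNA from 18 libraries was measured by poly-A RNA-seq. The authors deposited raw counts per gene without normalization, made per the labels with Trimmomatic 0.36, STAR 2.5.2b and featureCounts of Subread 1.5.2 on GRCh38. The study's methods name another build, but of the protein-coding genes compared, 85.3% of 18942 lay at their GRCh38 start (to within 1 kb) and 4.05% of 19567 at their GRCh37 start. The genome given was GRCh37, so coordinates came from the files. Library totals ran from 35342393 to 48245989 counts.

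Counts were tested in edgeR 4.0.16 (R 4.3.3) with TMM, filterByExpr and the quasi-likelihood test on the groups compared, and on 12 libraries for interactions, with Benjamini-Hochberg adjustment over all genes tested. A gene passed at an adjusted p under 0.05. SE is the absolute log2 fold change over the square root of F. CPM and RPKM used TMM factors over all libraries and the gene length in the files. The step was tested on simulated data. The 9 genes, the gene lists and the rule for named genes were chosen with earlier results of these data known. By that rule the text names the 9 genes, tested genes between them, 3 on each side, the 5 most like CDK4 and GLI1, and of each list at most 4 passing genes with the largest change plus PTCH1, HHIP, CCND1, CCND2, CDK6, RB1 and CDKN2A. One gene that this rule would name is not reported here.

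Alternatives were a 2-fold requirement, DESeq2 1.42.0, DESeq2-style size factors, library size alone, no filter, a minimum of 10 counts per library, a fit over all 18 libraries, a block for the replicate letter, a GC content and gene length correction (lowess, span 0.3) with and without the block, and leaving out each library. Letters were taken as pairs only in sgDNAJC17 against sgCTL in Rh30, where same-letter libraries deviated together (r = 0.61, 0.32 and 0.37 across genes with at least 100 counts). The labels do not say what a letter marks.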

Additional observations from a re-analysis of the deposited data

Results flagged for a closer look

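Changes differed between ES8 and Rh30 by the interaction test of edgeR for 2 of the 9 genes with sgDNAJC17 and 5 with ΔRRM. Values are the change in Rh30 minus the change in ES8 on the log2 scale. Of all genes tested 5.23% had a higher change in Rh30 and 4.55% a lower one with sgDNAJC17, and 19.9% and 21.5% with ΔRRM. For sgDNAJC17 against sgCTL the 2 genes were AVIL (-1.06), which rose in ES8 and fell in Rh30, and GLI1 (-0.83), which fell in Rh30 and did not pass in ES8. For ΔRRM against sgCTL they were AGAP2 (-0.82), OS9 (-0.62), GLI1 (-0.43) and EEF1AKMT3 (-0.41), which fell in Rh30 and did not pass in ES8, and TSPAN31 (0.65), which rose in Rh30 and did not pass in ES8. With GC content and length corrected GLI1 (-0.10, adjusted p = 0.466) and AGAP2 (-0.21, adjusted p = 0.0758) did not pass for ΔRRM. AVIL in ES8 rests on 78 to 139 counts per library.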

How the results depend on the processing

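All 9 genes passed with the same sign between the lines under each alternative except the 2-fold requirement, which GLI1 failed with sgCTL. With 2-fold required, 0 of the 9 passed in every comparison within a line and in the difference between the lines for ΔRRM, and 1 passed in that for sgDNAJC17. How many of all genes tested passed with 2-fold required was not counted. Leaving out 1 library gave 0 to 6 passing for sgDNAJC17 against sgCTL in ES8 and 0 to 3 for ΔRRM against sgDNAJC17 in ES8. The latter also gave 1 with DESeq2, library size or the replicate block, 7 with all 18 libraries, and 5 with GC content and length corrected, with or without the block. Over all genes tested, leaving out 1 library gave 1331 to 3950 up and 1171 to 4044 down for sgDNAJC17 against sgCTL in ES8. For ΔRRM against sgDNAJC17 in ES8 it gave 457 to 1738 up and 610 to 1636 down. The replicate block gave 7 for sgDNAJC17 against sgCTL in Rh30, and with GC content and length corrected, with or without the block, 3 passed in the difference between the lines for ΔRRM. Without the block that correction gave 3437 of 18854 genes tested a higher change in Rh30 and 3242 a lower one. The letters pair libraries in no other comparison by the check used. The cause of these changes was not tested.

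Signs turned only for values near 0, none of which passed under the alternative. For sgDNAJC17 against sgCTL in ES8, METTL1 was at 0.0035 with DESeq2, 0.011 with DESeq2-style size factors, 0.0020 with 10 counts in every library, 0.023 with all 18 libraries and -0.066 to 0.064 without 1 library. With library size alone CDK4 was at -0.021 for sgDNAJC17 and -0.12 for ΔRRM against sgCTL in Rh30 and at -0.10 for ΔRRM against sgDNAJC17, CYP27B1 was at -0.013 for sgDNAJC17, HMGA2 at -0.023 for ΔRRM, and METTL1 at -0.069 in the difference between the lines for ΔRRM. With GC content and length corrected, without and with the block, PTCH1 was at 0.074 and 0.073 between the lines with sgCTL and 0.031 and 0.028 for sgDNAJC17 in Rh30, and the difference between the lines for sgDNAJC17 was 0.0362 and 0.0360 for OS9 and 0.21 for AGAP2. Leaving out 1 library gave ranges across 0 for CYP27B1 in Rh30 with sgDNAJC17 (-0.0071 to 0.13). The same held in ES8 ΔRRM for GLI1 (-0.13 to 0.022), TSPAN31 (-0.067 to 0.013), OS9 (-0.013 to 0.069), AGAP2 (-0.018 to 0.075) and AVIL (-0.19 to 0.089). It also held in the difference between the lines for METTL1 (-0.14 to 0.0076) and AGAP2 (-0.14 to 0.051) with sgDNAJC17 and for CDK4 (-0.10 to 0.0034) and AVIL (-0.29 to 0.00087) with ΔRRM. Scaling by library size alone split the genes that passed into 1931 up and 2978 down for sgDNAJC17 in ES8, 1714 and 3207 in Rh30, 3220 and 6226 for ΔRRM against sgDNAJC17 in Rh30, and 640 and 1075 (sgDNAJC17) and 2486 and 5712 (ΔRRM) for the difference between the lines. ΔRRM against sgCTL in ES8 gave 192 up and 327 down with no filter and 44 and 58 with the block, and the difference between the lines for sgDNAJC17 gave 607 and 1242 with all 18 libraries. Among the 9 genes in comparisons within a line the SE was highest for AVIL in ES8, at 78 to 139 counts per library.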
